A study of Anas platyrhynchos with 16 samples.

Results

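Homeobox genes encode transcription factors that bind DNA through a homeodomain, and 101 of the 24263 genes in the deposited table were taken here as homeobox genes of regional identity. They are the genes whose symbol begins with LHX, ISL, NKX, POU, PAX, DLX, MEIS, PBX, IRX, OTX, EMX, GSX, BARHL, ZFHX or HOXA to HOXD followed by a number, together with SIX3 and SIX4 of a further family. LHX3, LHX4, SIX6 and POU1F1, known as factors of the pituitary lineages, were left out. Of the 101 genes, 37 are HOX genes and 64 belong to the other families. In the embryo these factors divide the nervous system into regions: genes such as OTX2, EMX2, SIX3 and NKX2-1 act in the forebrain, IRX and PAX genes in the thalamus and midbrain, and HOX genes in the hindbrain, spinal cord and trunk. Many remain active in adult neurons and endocrine cells, where they maintain the identity of a cell type. MEIS and PBX proteins bind DNA together with other homeodomain proteins as cofactors.

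Gene expression had been measured by RNA sequencing in the pituitary and the hypothalamus of Shanma ducks (Anas platyrhynchos) aged 113 days. Caged ducks, 15 birds, were moved at day 110 into 3 multilayer cages with 16 h of light a day, and 15 floor-water ducks stayed on a floor with access to water under natural light. The 4 groups were caged pituitary, floor-water pituitary, caged hypothalamus and floor-water hypothalamus, with 4 libraries each and 16 in all. The study asked how housing alters expression in both tissues. The labels do not say whether each library is a separate bird or from which cage it came, and the p-values rest on the spread among the libraries alone, which may be technical. Housing and day length differ together in this design and cannot be told apart.

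Library totals ranged from 38853215 to 67175356 counts. Levels are given in FPKM, fragments scaled to transcript length and library size by the authors, and entries without signal, which the authors list at 0.0001 FPKM, are written as 0. Summed markers of pituitary hormone cells reached 149527 to 202463 FPKM in caged pituitary and 137816 to 181169 FPKM in floor-water pituitary, against 63.5 to 29807 FPKM in caged hypothalamus and 91.2 to 1952 FPKM in floor-water hypothalamus. Caged hypothalamus library 4 held the highest of these hypothalamic sums, and caged hypothalamus library 2 stood apart in choroid plexus markers, with 20527 FPKM against 11.1 to 666 FPKM in the other hypothalamus libraries. Summed neuron markers were 155 to 291 FPKM in caged pituitary and 152 to 299 FPKM in floor-water pituitary, against 1850.2 to 2535 FPKM in caged hypothalamus and 2497 to 2597 FPKM in floor-water hypothalamus. In tissue pieces such as these, fewer cells of a type and less RNA per cell cannot be told apart.

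The hypothalamic label was checked against factors of that region and of its neighbours. RAX, a factor of the developing hypothalamus and of tanycytes, had 0.258, 0.428, 4.23 and 0.339 FPKM in caged hypothalamus and 0.25, 0.0693, 0.112 and 0.224 FPKM in floor-water hypothalamus. OTP, a factor of neuroendocrine neurons, had 0.797, 2.02, 6.75 and 2.52 FPKM in caged hypothalamus and 4.47, 0, 0.375 and 0.453 FPKM in floor-water hypothalamus. RAX passed 1 FPKM in 1 hypothalamus library and OTP had no signal in floor-water library 2. GBX2, a marker of the thalamus, had 45.8, 26.3, 51.4 and 30.6 FPKM in caged hypothalamus and 59.9, 88.5, 65.6 and 20.9 FPKM in floor-water hypothalamus, and TCF7L2, another thalamic factor, had 101, 59.6, 54.4 and 27.7 FPKM in caged and 80.3, 131, 90.8 and 46.1 FPKM in floor-water hypothalamus. GBX2 and TCF7L2 were above 20 FPKM in every hypothalamus library, while RAX and OTP were low and uneven. Not every factor of the hypothalamus was low, since POU3F4 had 5.38, 5.46, 3.86 and 5.93 FPKM in caged and 6.87, 5.62, 5.64 and 6.64 FPKM in floor-water hypothalamus. The whole list held 8 thalamus and midbrain markers, of which 6 were in the table, GBX2 and TCF7L2 among them. It summed to 92.2 to 168 FPKM in caged hypothalamus and 145 to 226 FPKM in floor-water hypothalamus. In the pituitary it summed to 45 to 70.3 FPKM in caged and 59.5 to 71.7 FPKM in floor-water birds. Which parts of the brain each piece contained was not tested.

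Of the 101 genes, 41 reached a mean of 1 FPKM in at least 1 group, and none of these was a HOX gene. In the pituitary 15 genes reached that level, in the hypothalamus 39, and 13 of them did so in both tissues. ISL2 and SIX4 reached it only in the pituitary and 26 genes only in the hypothalamus. A total of 53 genes stayed below 1 FPKM in every library. The plot of levels by library shows a dark pituitary block for most IRX, POU3F, LHX, OTX and BARHL genes beside bright rows for SIX3, PAX6, NKX2-2, MEIS1 and PBX4.

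**Figure D1:**
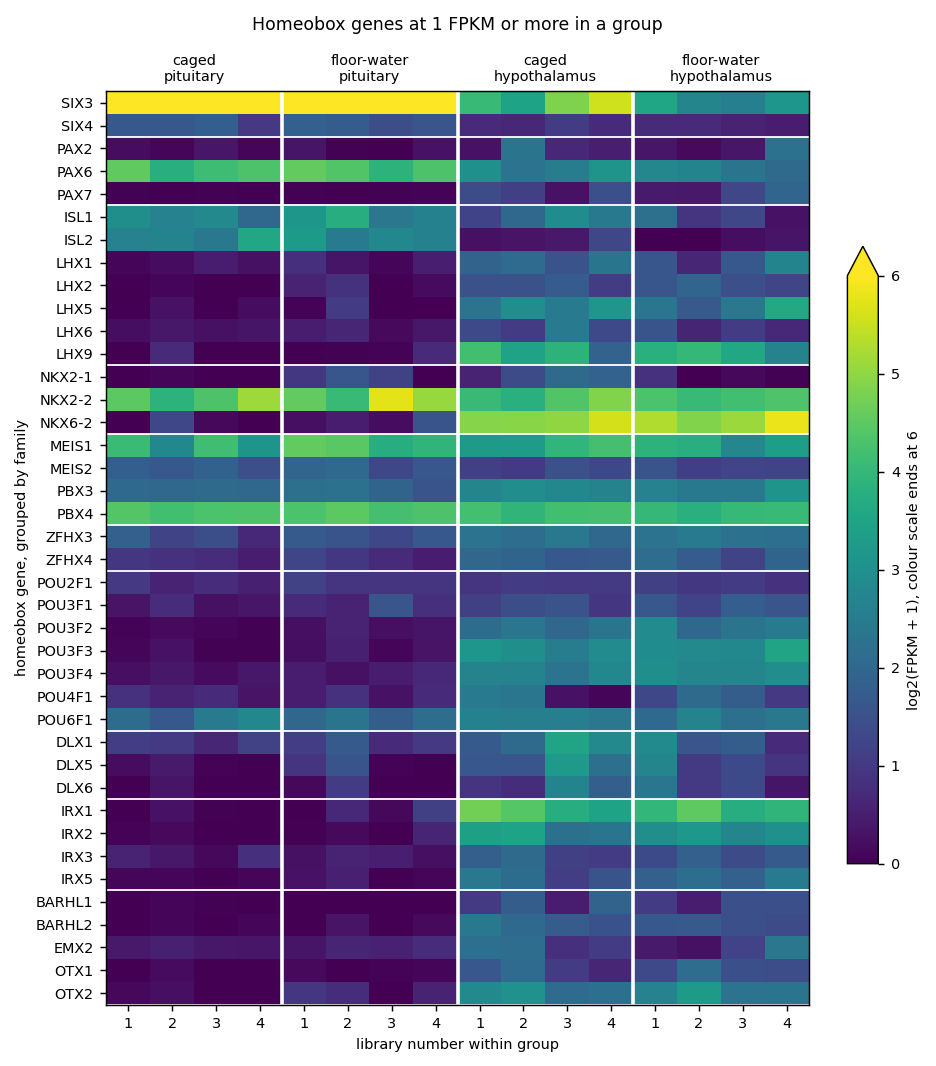
Levels of 40 of the 41 homeobox genes with a mean of 1 FPKM or more in a group, as log2(FPKM + 1) on a colour scale that ends at 6, with 1 column per library (4 per group) and 1 row per gene, grouped by family. SIX3 exceeds the scale in all 8 pituitary libraries, and most IRX, POU3F and LHX genes are near 0 there and clearly above 0 in the hypothalamus libraries.

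HOX genes were almost silent. The highest value of any HOX gene in any library was 0.369 FPKM, for HOXA13 in caged hypothalamus library 3. No signal in any of the 16 libraries was recorded for 19 of them, namely HOXA9, HOXA10, HOXA11, HOXB1, HOXB2, HOXB4, HOXB8, HOXB9, HOXB13, HOXC8, HOXC9, HOXC10, HOXC11, HOXC12, HOXD4, HOXD10, HOXD11, HOXD12 and HOXD13. HOXC6 had signal in 7 libraries with at most 0.139 FPKM, HOXC5 in 6 with at most 0.0733 FPKM, HOXD8 in 4 with at most 0.204 FPKM and HOXC4 in 3 with at most 0.14 FPKM. HOXA4 and HOXB7 reached 0.0876 and 0.0673 FPKM, and HOXA7 and HOXD3 0.0294 and 0.0285 FPKM, each in 2 libraries. HOXA2, HOXA3, HOXA5, HOXA6, HOXB3, HOXB5, HOXB6, HOXC13 and HOXD9 had signal in 1 library each, at 0.0141 to 0.102 FPKM. Between the tissues of caged birds HOXC6 passed the edgeR test (adjusted p = 0.00293), with 0 counts in the pituitary and 79 in the hypothalamus. By raw library totals it was at least 31.5-fold lower in the pituitary with a floor of 3 counts over the group. Bounds of this kind, here and below, use raw totals and are not on the scale of the fitted log2 fold changes. HOX expression marks the hindbrain and spinal cord, and neither tissue showed a HOX gene at 1 FPKM in any library.

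Between the tissues, more of the tested homeobox genes were lower than higher in the pituitary in both housings. In caged birds, pituitary against hypothalamus, 53 of the 101 genes passed the filter on low counts, and 7 were higher (background 27.3% of all 15854 genes tested) and 31 lower (background 26.8%) at an adjusted p under 0.05 in edgeR's quasi-likelihood test. In floor-water birds 52 genes were tested, and 10 were higher (background 28.5% of 15878 genes) and 25 lower (background 27.8%). With a log2 fold change of at least 2 in size as well, 2 were higher and 27 lower in caged birds (background 6.02% and 11.4%), and 6 were higher and 20 lower in floor-water birds (background 8.87% and 10.4%). The median log2 fold change of the genes tested was -2.24 in caged and -1.41 in floor-water birds, against 0.07 over all genes tested in either housing. FPKM ranges of the tissues did not overlap for 4 genes higher and 30 lower in caged birds (background 16.9% and 35.3%), and for 7 higher and 23 lower in floor-water birds (background 22.3% and 31.6%).

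The filter removed genes that are low in both tissues, so these counts describe the genes that passed it and not all 101. With limma on log2(FPKM + 1), the whole table in caged birds split into 2930 genes higher and 5821 lower, against 4323 and 4248 by the count test, and the homeobox genes into 7 higher and 31 lower. The same alternative gave 3792 higher and 5280 lower over the whole table in floor-water birds, against 4522 and 4413, and 8 and 27 among the homeobox genes. The median of all genes moved to -0.13 in caged birds under that scaling, so small fold changes depend on it.

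The caged and floor-water comparisons share no library. In both, 7 genes were higher in the pituitary (DLX3, ISL2, MEIS2, PAX6, PBX4, SIX3 and SIX4), which are 100% of the caged and 70% of the floor-water calls in that direction. In both, 22 were lower in the pituitary, 71% of the caged and 88% of the floor-water calls, among them BARHL1, BARHL2, IRX1, IRX2, IRX3, IRX5, LHX1, LHX2, LHX5, LHX6, LHX9, NKX6-2, OTX1, OTX2, PAX3, PAX7, PBX3, POU3F2, POU3F3, POU3F4 and ZFHX4. No gene was called in opposite directions. Over all genes tested, 27.3% were higher and 26.8% lower in caged birds, and 28.5% and 27.8% in floor-water birds. The share called in both housings was not computed over all genes, so this agreement is not shown to be particular to homeobox genes. Calls made in 1 housing only, such as those of ISL1, MEIS1 and NKX2-2 in floor-water birds and of the DLX genes in caged birds, are not shown to differ between housings, since 0 of 57 homeobox genes passed the test of that difference given further on.

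**Figure D2:**
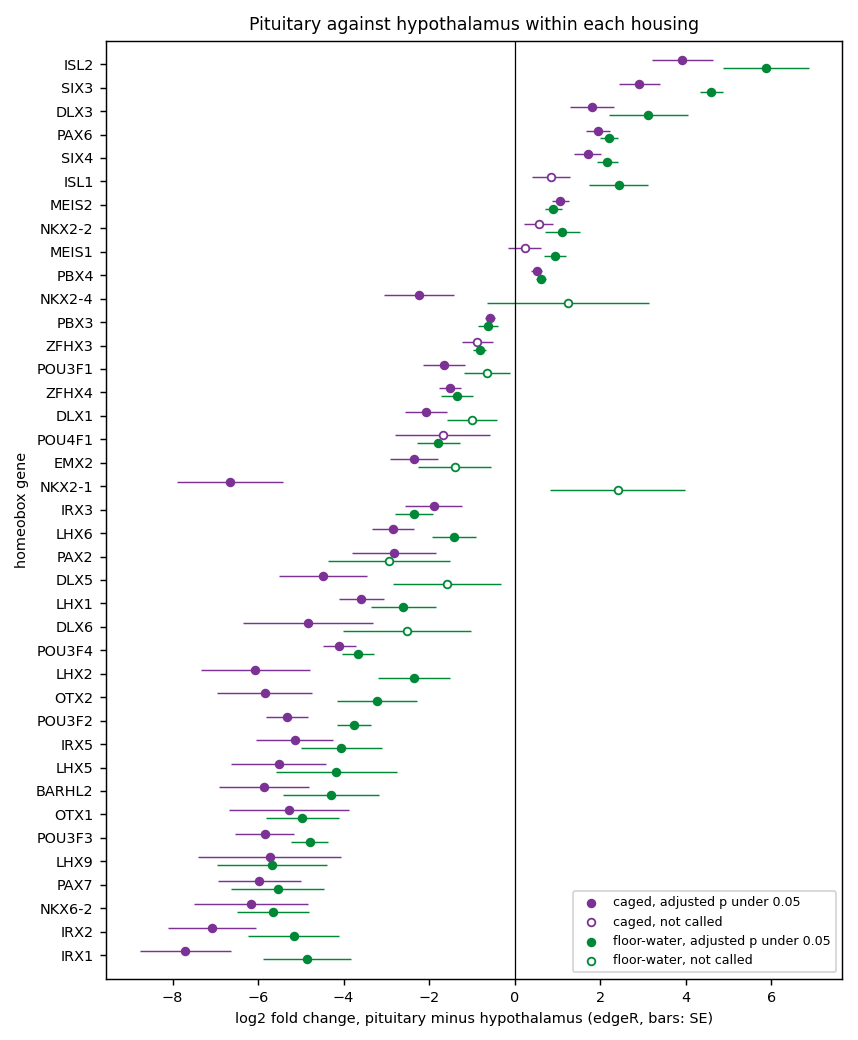
Log2 fold change of each gene, pituitary minus hypothalamus, in caged (purple) and floor-water (green) birds from edgeR, with bars for the SE derived from the F statistic. Filled points have an adjusted p under 0.05. The 39 genes drawn were tested in both housings, called in at least 1 and had counts in every group, and ISL2 and SIX3 lie farthest right while IRX1 and IRX2 lie farthest left.

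SIX3 had the highest pituitary level of the 101 listed genes. SIX3, which acts in the forebrain, the eye and the developing pituitary, had 182, 97.4, 131 and 177 FPKM in caged pituitary and 177, 187, 99.4 and 155 FPKM in floor-water pituitary. Hypothalamus levels of SIX3 were 15.5, 10.2, 27.5 and 46.2 FPKM in caged hypothalamus and 10.5, 5.65, 4.99 and 7.95 FPKM in floor-water hypothalamus. Every pituitary library was above every hypothalamus library. The log2 fold change was 2.92 ± 0.47 (adjusted p = 0.000916) in caged birds and 4.60 ± 0.26 (adjusted p = 4.9e-06) in floor-water birds, given here and below as pituitary minus hypothalamus ± SE with the adjusted p of edgeR. The SE was derived from the test, as the size of the log2 fold change divided by the square root of the F statistic. It is only approximate, above all where a group has few counts. Without caged hypothalamus library 4, which carries 46.2 FPKM of SIX3 and the most pituitary hormone transcripts, the caged value was 3.43. SIX4, a relative active in muscle and sensory placodes, had 2.13, 2.14, 2.44 and 1.01 FPKM in caged pituitary and 2.59, 2.33, 1.69 and 2 FPKM in floor-water pituitary. Hypothalamus levels of SIX4 were 0.672, 0.61, 1.07 and 0.63 FPKM in caged hypothalamus and 0.665, 0.638, 0.512 and 0.382 FPKM in floor-water hypothalamus. It rose by 1.71 ± 0.32 (adjusted p = 0.00196) in caged and 2.17 ± 0.25 (adjusted p = 8.26e-05) in floor-water birds. Its caged ranges overlapped, because pituitary library 4 had 1.01 FPKM and hypothalamus library 3 had 1.07 FPKM. The file lists the relative SIX2 by locus number only, and it is not among the 101. The entry that the reference gene table pairs with SIX2 had 353, 279, 324 and 449 FPKM in caged pituitary and 425, 219, 338 and 270.1 FPKM in floor-water pituitary, against 11.8, 0.425, 14.9 and 71.8 FPKM in caged hypothalamus and 4.1, 0.346, 0.543 and 1.5 FPKM in floor-water hypothalamus.

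Among the LIM homeodomain genes of the list, 2 ISL genes and 6 LHX genes, the called ISL and LHX genes ran in opposite directions. LHX3 and LHX4 had been left out of the list. ISL2, known from motor neurons, had 5.34, 5.5, 4.27 and 10.9 FPKM in caged pituitary and 8.62, 4.45, 5.98 and 5.2 FPKM in floor-water pituitary. Hypothalamus levels of ISL2 were 0.209, 0.243, 0.33 and 1.42 FPKM in caged hypothalamus and 0, 0, 0.175 and 0.263 FPKM in floor-water hypothalamus. The highest hypothalamus library, caged library 4, stayed below the lowest pituitary library. Its log2 fold change was 3.92 ± 0.71 (adjusted p = 0.00161) in caged and 5.88 ± 1.002 (adjusted p = 0.000871) in floor-water birds, and 4.98 in caged birds without that library and 6.67 in floor-water birds without hypothalamus library 4. ISL1, which in mouse acts in gonadotrophs and in neurons of the arcuate nucleus, had 6.95, 5.36, 6.12 and 3.07 FPKM in caged pituitary and 8.01, 12.3, 4.21 and 5.22 FPKM in floor-water pituitary. Hypothalamus levels of ISL1 were 1.33, 3.03, 6.51 and 4.35 FPKM in caged hypothalamus and 3.63, 0.91, 1.44 and 0.223 FPKM in floor-water hypothalamus. Floor-water ranges did not overlap and caged ranges did, with values of 0.85 ± 0.45 (adjusted p = 0.138) in caged and 2.44 ± 0.69 (adjusted p = 0.0132) in floor-water birds. The floor-water value was 3.27 without hypothalamus library 1, and it was 2.22 with an adjusted p of 0.0596 without pituitary libraries 2 and 4.

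All LHX genes of the list with a call were lower in the pituitary. LHX3, left out of the list as a pituitary factor, was called higher there in both housings. Its values were 3.99 ± 1.37 (adjusted p = 0.0341) in caged and 8.24 ± 1.04 (adjusted p = 0.000148) in floor-water birds. LHX9, a factor of the thalamus and other diencephalic regions, had 0, 0.658, 0 and 0 FPKM in caged pituitary and 0, 0.0263, 0.0334 and 0.675 FPKM in floor-water pituitary. Hypothalamus levels of LHX9 were 17.3, 9.9, 13.8 and 2.68 FPKM in caged hypothalamus and 12.9, 14.9, 10.9 and 5.4 FPKM in floor-water hypothalamus. The log2 fold change of LHX9 was -5.73 ± 1.67 (adjusted p = 0.0175) in caged and -5.67 ± 1.29 (adjusted p = 0.00442) in floor-water birds. Its pituitary signal came almost wholly from caged library 2 and floor-water library 4. LHX2, which patterns the forebrain and is active in tanycytes, had 0, 0.0776, 0 and 0 FPKM in caged pituitary and 0.502, 0.837, 0.012 and 0.134 FPKM in floor-water pituitary. Hypothalamus levels of LHX2 were 1.82, 1.83, 2.37 and 1.08 FPKM in caged hypothalamus and 2.06, 2.91, 1.75 and 1.37 FPKM in floor-water hypothalamus. The values of LHX2 were -6.07 ± 1.28 (adjusted p = 0.00359) in caged and -2.36 ± 0.84 (adjusted p = 0.0368) in floor-water birds. The floor-water call was lost without hypothalamus library 1, 2 or 3 (adjusted p of 0.065, 0.0844 and 0.059) and without pituitary library 1 or 4 (0.0539 and 0.0844), pituitary libraries 2 and 4 together (0.0591) or in 1 fit over all libraries (0.0587), and the value was -3.11 without pituitary library 2.

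LHX6, a factor of inhibitory interneurons, had 0.158, 0.302, 0.212 and 0.262 FPKM in caged pituitary and 0.382, 0.576, 0.117 and 0.314 FPKM in floor-water pituitary. Hypothalamus levels of LHX6 were 1.49, 1.05, 4.58 and 1.49 FPKM in caged hypothalamus and 1.93, 0.541, 1.06 and 0.627 FPKM in floor-water hypothalamus. The values of LHX6 were -2.84 ± 0.49 (adjusted p = 0.00134) in caged and -1.42 ± 0.51 (adjusted p = 0.0369) in floor-water birds. The caged value was -2.19 without hypothalamus library 3. The floor-water call was lost without hypothalamus library 1 or 3 (adjusted p of 0.13 and 0.0706) and without pituitary library 1, 3 or 4 (0.0656, 0.0752 and 0.0754), as well as without pituitary libraries 2 and 4 together (0.0545) and with the replicate number as a block (0.0722). LHX1 and LHX5 act together in the diencephalon. LHX1 averaged 0.195 ± 0.132 FPKM in caged pituitary and 0.377 ± 0.292 FPKM in floor-water pituitary, against 2.99 ± 0.902 FPKM in caged hypothalamus and 2.59 ± 2.12 FPKM in floor-water hypothalamus (mean ± SD, n = 4 each, as below). LHX5 averaged 0.0948 ± 0.113 FPKM in caged pituitary and 0.286 ± 0.542 FPKM in floor-water pituitary, against 5.69 ± 1.81 FPKM in caged hypothalamus and 5.48 ± 4.04 FPKM in floor-water hypothalamus. The log2 fold changes of LHX1 and LHX5 were -3.59 ± 0.53 (adjusted p = 0.000582) and -5.52 ± 1.11 (adjusted p = 0.00284) in caged birds and -2.61 ± 0.76 (adjusted p = 0.0158) and -4.17 ± 1.41 (adjusted p = 0.03) in floor-water birds. LHX8, known from cholinergic neurons of the forebrain, reached 1 FPKM in caged hypothalamus library 3 alone, with 1.28 FPKM, and passed no test.

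NKX genes ranged from among the highest to silent. NKX2-2, which specifies ventral neurons and oligodendrocytes, had 21.3, 13.7, 19 and 33.9 FPKM in caged pituitary and 22.5, 15.7, 53.2 and 32.5 FPKM in floor-water pituitary. Hypothalamus levels of NKX2-2 were 15.6, 13, 19.7 and 28.1 FPKM in caged hypothalamus and 18.7, 15.8, 17 and 19.3 FPKM in floor-water hypothalamus. All 16 libraries were at 13 FPKM or more, and the highest was floor-water pituitary library 3. Its values were 0.56 ± 0.33 (adjusted p = 0.184) in caged and 1.12 ± 0.41 (adjusted p = 0.0411) in floor-water birds. The floor-water call was lost without any 1 of the 4 hypothalamus libraries (adjusted p of 0.0708 to 0.0889) and without pituitary library 3 or 4 (0.106 and 0.0709), the value being 0.57 without library 3, and it was lost with the block (0.0815), while in caged birds it passed the threshold at 0.0282 with the replicate block and at 0.0281 without pituitary library 2 and hypothalamus library 4. With limma on log2(FPKM + 1) the floor-water adjusted p was 0.109. NKX6-2, a factor of myelinating oligodendrocytes, had 0, 1.44, 0.0891 and 0 FPKM in caged pituitary and 0.177, 0.382, 0.145 and 1.95 FPKM in floor-water pituitary. Hypothalamus levels of NKX6-2 were 28.9, 29.6, 31 and 48.3 FPKM in caged hypothalamus and 37.8, 28.1, 33.3 and 55.9 FPKM in floor-water hypothalamus. Its fold changes were -6.16 ± 1.34 (adjusted p = 0.0042) in caged and -5.66 ± 0.84 (adjusted p = 0.000376) in floor-water birds.

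NKX2-1, the factor that specifies the ventral forebrain and the hypothalamus, was low wherever it was found. It had 0, 0.054, 0 and 0 FPKM in caged pituitary and 0.965, 2.05, 1.23 and 0 FPKM in floor-water pituitary. Hypothalamus levels of NKX2-1 were 0.484, 1.57, 3.21 and 2.7 FPKM in caged hypothalamus and 0.817, 0, 0.0863 and 0.0287 FPKM in floor-water hypothalamus. In floor-water pituitary 3 libraries, and in caged hypothalamus all 4, were above every library of caged pituitary. In caged birds its value was -6.65 ± 1.24 (adjusted p = 0.00192), and in floor-water birds 2.41 ± 1.58 (adjusted p = 0.222), or 4.84 with an adjusted p of 0.0459 without hypothalamus library 1. NKX2-4, a relative of NKX2-1, had at most 0.166 FPKM in caged pituitary and 0.74 FPKM in floor-water pituitary, against 0.758 FPKM in caged hypothalamus and 0.268 FPKM in floor-water hypothalamus, and -2.24 ± 0.81 (adjusted p = 0.0423) in caged birds. NKX2-8 had counts in no caged pituitary library and 189 counts in caged hypothalamus. It was therefore at least 75.4-fold lower in caged pituitary with a floor of 3 counts over the group, and it was not tested because of the filter. The remaining NKX genes, which act mainly outside the brain or in the early spinal cord, stayed below 1 FPKM: NKX1-1 reached 0.167, NKX1-2 0.351, NKX2-3 0.0431, NKX2-5 0.0533, NKX3-2 0.305 and NKX6-3 0.0405 FPKM. The entry listed by locus number that the reference table pairs with NKX6-1, no member of the list, reached 14.5 FPKM in caged hypothalamus library 2.

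PAX genes behaved differently from one another. PAX6, a factor of the forebrain, the eye and endocrine cells, had 22.2, 12.7, 16.7 and 18.9 FPKM in caged pituitary and 22.6, 19.6, 13.8 and 19 FPKM in floor-water pituitary. Hypothalamus levels of PAX6 were 7.01, 3.9, 4.76 and 7.63 FPKM in caged hypothalamus and 5.91, 5.58, 3.93 and 3.24 FPKM in floor-water hypothalamus. The lowest pituitary library lay above the highest hypothalamus library in both housings, with 1.95 ± 0.27 (adjusted p = 0.000448) in caged and 2.20 ± 0.22 (adjusted p = 3.34e-05) in floor-water birds. PAX7, which acts in the dorsal midbrain and in mouse in melanotrophs of the intermediate lobe, had 0.0276, 0, 0.0166 and 0.0115 FPKM in caged pituitary and 0.0311, 0, 0.0171 and 0.0381 FPKM in floor-water pituitary. Hypothalamus levels of PAX7 were 1.61, 1.19, 0.229 and 1.77 FPKM in caged hypothalamus and 0.349, 0.322, 1.43 and 2.88 FPKM in floor-water hypothalamus. It was lower in the pituitary, at -5.97 ± 0.98 (adjusted p = 0.000988) in caged and -5.54 ± 1.08 (adjusted p = 0.00192) in floor-water birds. The caged value was -6.60 without pituitary library 1 and the floor-water value -4.71 without hypothalamus library 4. PAX3, a dorsal neural tube factor, reached 1.26 FPKM in floor-water hypothalamus library 4. It had 0 counts in caged pituitary and 349 in caged hypothalamus, at least 139-fold lower with a floor of 3 counts over the group (adjusted p = 0.0012), and -6.28 ± 1.40 (adjusted p = 0.00407) in floor-water birds. PAX2, a factor of the boundary between midbrain and hindbrain, averaged 0.146 ± 0.109 FPKM in caged pituitary and 0.128 ± 0.133 FPKM in floor-water pituitary, against 1.31 ± 1.79 FPKM in caged hypothalamus and 1.11 ± 1.78 FPKM in floor-water hypothalamus, with -2.82 ± 0.97 (adjusted p = 0.0352) in caged and -2.95 ± 1.43 (adjusted p = 0.107) in floor-water birds. PAX5, its partner at that boundary, reached 1.43 FPKM in floor-water hypothalamus library 4 and passed no test. PAX9, PAX1 and PAX4, known from the pharyngeal pouches, the sclerotome and the pancreatic islets, reached 0.528, 0.27 and 0.00816 FPKM.

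Of the POU3F genes, which include factors of neuroendocrine neurons, POU3F2, POU3F3 and POU3F4 were lower in the pituitary in both housings and POU3F1 was called in caged birds alone. POU3F3 had 0.083, 0.217, 0.0195 and 0.027 FPKM in caged pituitary and 0.158, 0.434, 0.0802 and 0.244 FPKM in floor-water pituitary. Hypothalamus levels of POU3F3 were 7.93, 6.88, 4.75 and 6.43 FPKM in caged hypothalamus and 6.55, 6.05, 6 and 10.3 FPKM in floor-water hypothalamus. No pituitary library reached 0.5 FPKM and no hypothalamus library was below 4 FPKM, and the fold changes were -5.85 ± 0.69 (adjusted p = 0.000192) in caged and -4.79 ± 0.44 (adjusted p = 2.38e-05) in floor-water birds. POU3F2, required in mouse for oxytocin, vasopressin and CRH neurons, had 0.0419, 0.119, 0.0715 and 0.0254 FPKM in caged pituitary and 0.189, 0.483, 0.194 and 0.26 FPKM in floor-water pituitary. Hypothalamus levels of POU3F2 were 3.37, 4.08, 3.05 and 3.98 FPKM in caged hypothalamus and 6.41, 3.06, 3.93 and 4.48 FPKM in floor-water hypothalamus. Its values were -5.32 ± 0.49 (adjusted p = 6.71e-05) in caged and -3.76 ± 0.39 (adjusted p = 4.76e-05) in floor-water birds, without overlap in either. POU3F4, a factor of the hypothalamus and the inner ear, had 0.188, 0.31, 0.129 and 0.311 FPKM in caged pituitary and 0.397, 0.211, 0.403 and 0.602 FPKM in floor-water pituitary. Hypothalamus levels of POU3F4 were 5.38, 5.46, 3.86 and 5.93 FPKM in caged hypothalamus and 6.87, 5.62, 5.64 and 6.64 FPKM in floor-water hypothalamus. The values of POU3F4 were -4.10 ± 0.38 (adjusted p = 7.12e-05) in caged and -3.67 ± 0.37 (adjusted p = 4.2e-05) in floor-water birds. POU3F1, known from myelinating cells, had 0.25, 0.688, 0.212 and 0.278 FPKM in caged pituitary and 0.667, 0.508, 2 and 0.771 FPKM in floor-water pituitary. Hypothalamus levels of POU3F1 were 1.2, 1.73, 1.89 and 0.938 FPKM in caged hypothalamus and 2.08, 1.32, 2.48 and 1.98 FPKM in floor-water hypothalamus. Its caged value was -1.65 ± 0.49 (adjusted p = 0.0193), against -0.66 ± 0.54 (adjusted p = 0.327) in floor-water birds, and the caged call was lost without hypothalamus library 2 or 3 or pituitary library 1 (adjusted p of 0.0526, 0.0548 and 0.0519). In floor-water birds it passed at 0.0134 without pituitary library 3, at -1.43, and at 0.0438 with limma on log2(FPKM + 1).

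The other POU genes were less divided. POU6F1, an almost evenly expressed gene, had 3.39, 2.16, 4.49 and 6.01 FPKM in caged pituitary and 3.04, 3.93, 2.4 and 3.39 FPKM in floor-water pituitary. Hypothalamus levels of POU6F1 were 5.2, 4.94, 4.88 and 4.16 FPKM in caged hypothalamus and 3.11, 5.39, 3.66 and 4.28 FPKM in floor-water hypothalamus. Its fold changes of 0.10 ± 0.30 (adjusted p = 0.803) in caged and -0.17 ± 0.21 (adjusted p = 0.526) in floor-water birds passed no threshold. POU2F1, expressed in most cells, averaged 0.661 ± 0.245 FPKM in caged pituitary and 0.971 ± 0.168 FPKM in floor-water pituitary, against 0.996 ± 0.0924 FPKM in caged hypothalamus and 1.01 ± 0.166 FPKM in floor-water hypothalamus, again without a call. POU4F1, a factor of the habenula and of sensory neurons, averaged 0.556 ± 0.251 FPKM in caged pituitary and 0.523 ± 0.262 FPKM in floor-water pituitary, against 2.26 ± 2.46 FPKM in caged hypothalamus and 2.02 ± 0.999 FPKM in floor-water hypothalamus and was called in floor-water birds at -1.78 ± 0.50 (adjusted p = 0.0134). POU4F2 had 0 counts in floor-water pituitary and 117 in floor-water hypothalamus, at least 45.3-fold lower (adjusted p = 0.003), and at most 1.23 FPKM in any library. POU2F3, a factor of chemosensory tuft cells, reached 0.48 FPKM in floor-water pituitary library 4 and POU4F3, known from hair cells, 0.646 FPKM in caged pituitary library 2, both without a call.

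IRX1, IRX2, IRX3 and IRX5, of a family that patterns the thalamus and midbrain, were lower in the pituitary in both housings. IRX1 had 0, 0.22, 0.0265 and 0 FPKM in caged pituitary and 0, 0.612, 0.0937 and 1.21 FPKM in floor-water pituitary. Hypothalamus levels of IRX1 were 25.5, 20.4, 12.4 and 10.1 FPKM in caged hypothalamus and 14.6, 21.8, 12.3 and 14.1 FPKM in floor-water hypothalamus. It was below 1.3 FPKM in every pituitary library and above 10 FPKM in every hypothalamus library, with -7.71 ± 1.06 (adjusted p = 0.000399) in caged and -4.85 ± 1.03 (adjusted p = 0.00312) in floor-water birds. IRX2 had 0.0449, 0.107, 0 and 0 FPKM in caged pituitary and 0.0254, 0.107, 0 and 0.532 FPKM in floor-water pituitary. Hypothalamus levels of IRX2 were 9.7, 10.2, 3.66 and 4.05 FPKM in caged hypothalamus and 6.8, 8.21, 5.68 and 7.01 FPKM in floor-water hypothalamus. The values of IRX2 were -7.08 ± 1.03 (adjusted p = 0.000532) in caged and -5.17 ± 1.07 (adjusted p = 0.00267) in floor-water birds. IRX3 had 0.506, 0.311, 0.0901 and 0.752 FPKM in caged pituitary and 0.21, 0.516, 0.415 and 0.188 FPKM in floor-water pituitary. Hypothalamus levels of IRX3 were 2.51, 3.22, 1.19 and 1.05 FPKM in caged hypothalamus and 1.55, 2.61, 1.58 and 2.27 FPKM in floor-water hypothalamus. IRX5 averaged 0.0549 ± 0.038 FPKM in caged pituitary and 0.183 ± 0.204 FPKM in floor-water pituitary, against 2.68 ± 1.42 FPKM in caged hypothalamus and 3.28 ± 0.873 FPKM in floor-water hypothalamus. Both were lower in the pituitary, IRX3 at -1.89 ± 0.66 (adjusted p = 0.0373) in caged and -2.35 ± 0.44 (adjusted p = 0.00161) in floor-water birds, and IRX5 at -5.14 ± 0.90 (adjusted p = 0.00138) and -4.05 ± 0.95 (adjusted p = 0.00531). The caged call of IRX3 was lost without hypothalamus library 1 or 2 (adjusted p of 0.0844 and 0.103) and without pituitary library 1 or 2 (0.0569 and 0.0741). IRX4, a factor of the heart ventricle, was seen in 3 hypothalamus libraries only, at up to 0.344 FPKM.

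OTX, EMX, GSX and BARHL genes followed the same direction where they were called. OTX2, a factor of the forebrain, the midbrain and the choroid plexus, had 0.0873, 0.182, 0 and 0 FPKM in caged pituitary and 0.934, 0.73, 0 and 0.496 FPKM in floor-water pituitary. Hypothalamus levels of OTX2 were 6.35, 7.24, 3.29 and 3.56 FPKM in caged hypothalamus and 5.32, 8.68, 3.9 and 3.96 FPKM in floor-water hypothalamus. Its values were -5.85 ± 1.10 (adjusted p = 0.00201) in caged and -3.22 ± 0.93 (adjusted p = 0.0147) in floor-water birds, and the floor-water call was lost without pituitary libraries 2 and 4 together (adjusted p of 0.0685). Caged hypothalamus library 2, with the extreme choroid plexus sum, had 7.24 FPKM of OTX2. Floor-water hypothalamus library 2 had 8.68 FPKM of OTX2 and the highest choroid plexus sum of its group, 113 FPKM. What part choroid plexus RNA has in the OTX2 levels was not tested. OTX1 had 0, 0.138, 0 and 0 FPKM in caged pituitary and 0.106, 0, 0.0431 and 0.0677 FPKM in floor-water pituitary. Hypothalamus levels of OTX1 were 2.1, 3.26, 1.09 and 0.568 FPKM in caged hypothalamus and 1.51, 3.45, 1.76 and 1.68 FPKM in floor-water hypothalamus. The values of OTX1 were -5.29 ± 1.41 (adjusted p = 0.0114) in caged and -4.96 ± 0.86 (adjusted p = 0.000957) in floor-water birds.

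BARHL1, active in diencephalon, cerebellum and inner ear, had 0, 0.0654, 0.0309 and 0 FPKM in caged pituitary and 0, 0, 0 and 0 FPKM in floor-water pituitary. Hypothalamus levels of BARHL1 were 1.03, 2.41, 0.371 and 2.77 FPKM in caged hypothalamus and 1.04, 0.385, 1.76 and 1.75 FPKM in floor-water hypothalamus. With 0 counts in floor-water pituitary and 490 in floor-water hypothalamus it was at least 189.7-fold lower (adjusted p = 0.000413), and in caged birds its value was -5.60 ± 1.14 (adjusted p = 0.003). BARHL2 had 0, 0.0811, 0 and 0.0734 FPKM in caged pituitary and 0, 0.243, 0 and 0.114 FPKM in floor-water pituitary. Hypothalamus levels of BARHL2 were 4.39, 3.16, 2.38 and 1.83 FPKM in caged hypothalamus and 2.13, 2.18, 1.78 and 1.65 FPKM in floor-water hypothalamus. The values of BARHL2 were -5.87 ± 1.05 (adjusted p = 0.00156) in caged and -4.30 ± 1.12 (adjusted p = 0.009) in floor-water birds. EMX2, which patterns the dorsal forebrain, had 0.339, 0.434, 0.305 and 0.277 FPKM in caged pituitary and 0.256, 0.543, 0.462 and 0.684 FPKM in floor-water pituitary. Hypothalamus levels of EMX2 were 3.56, 3.41, 0.761 and 1.05 FPKM in caged hypothalamus and 0.356, 0.207, 1.32 and 4.2 FPKM in floor-water hypothalamus. It was called in caged birds at -2.35 ± 0.55 (adjusted p = 0.00636) and not in floor-water birds at -1.40 ± 0.85 (adjusted p = 0.186). GSX1 reached 1.72 FPKM in floor-water pituitary library 2 and 1.98 FPKM in caged hypothalamus library 4 without a call, and GSX2 had 0.123 FPKM in caged hypothalamus library 3 and no signal elsewhere.

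DLX genes split by locus. DLX1, DLX5 and DLX6 drive inhibitory neurons of the forebrain. DLX1 had 1.13, 1.02, 0.575 and 1.28 FPKM in caged pituitary and 1.13, 2.23, 0.651 and 0.991 FPKM in floor-water pituitary, and averaged 5.46 ± 3.61 FPKM in caged hypothalamus and 2.8 ± 2.37 FPKM in floor-water hypothalamus. DLX5 averaged 0.136 ± 0.162 FPKM in caged pituitary and 0.711 ± 0.916 FPKM in floor-water pituitary, against 4.01 ± 2.95 FPKM in caged hypothalamus and 2.27 ± 2.29 FPKM in floor-water hypothalamus. DLX6 averaged 0.0661 ± 0.132 FPKM in caged pituitary and 0.286 ± 0.517 FPKM in floor-water pituitary, against 2.42 ± 2.23 FPKM in caged hypothalamus and 1.73 ± 1.7 FPKM in floor-water hypothalamus. In caged birds all 3 were lower in the pituitary, at -2.08 ± 0.49 (adjusted p = 0.00618), -4.48 ± 1.03 (adjusted p = 0.00566) and -4.83 ± 1.53 (adjusted p = 0.0249). In floor-water birds none was called, at -0.998 ± 0.60 (adjusted p = 0.182), -1.58 ± 1.27 (adjusted p = 0.316) and -2.52 ± 1.505 (adjusted p = 0.183), although DLX1 passed at 0.0407 with a value of -1.33 without hypothalamus library 4. DLX3, known from skin, placenta and bone, was higher in the pituitary, with 0.559, 0.485, 0.443 and 1.38 FPKM in caged pituitary and 0.838, 0.505, 0.615 and 0.717 FPKM in floor-water pituitary. Hypothalamus levels of DLX3 were 0.255, 0.303, 0.203 and 0.28 FPKM in caged hypothalamus and 0.0877, 0.174, 0 and 0.0831 FPKM in floor-water hypothalamus. The values of DLX3 were 1.80 ± 0.52 (adjusted p = 0.0157) in caged and 3.13 ± 0.93 (adjusted p = 0.0167) in floor-water birds. Its neighbour DLX4 had signal in 7 of 8 pituitary libraries at up to 0.356 FPKM and in no hypothalamus library. It was at least 18.7-fold higher in caged and 16.4-fold higher in floor-water pituitary with a floor of 3 counts over the group. Because of the filter DLX4 was not tested between the tissues.

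MEIS and PBX cofactors were expressed in both tissues, and the members that were called differed in direction. PBX4 had 19.9, 17.3, 18.7 and 18.9 FPKM in caged pituitary and 18.9, 21.6, 17.9 and 19 FPKM in floor-water pituitary. Hypothalamus levels of PBX4 were 17.5, 14.3, 17.1 and 17.8 FPKM in caged hypothalamus and 14.9, 13, 15.2 and 15.8 FPKM in floor-water hypothalamus. That was the narrowest range of all 41 genes. Its small differences were called, at 0.51 ± 0.13 (adjusted p = 0.00823) in caged and 0.61 ± 0.12 (adjusted p = 0.00214) in floor-water birds, and the caged one was 0.16 with an adjusted p of 0.231 with limma on log2(FPKM + 1). MEIS1 had 16.1, 5.93, 16.7 and 7.59 FPKM in caged pituitary and 22.7, 21.1, 12.4 and 14.2 FPKM in floor-water pituitary. Hypothalamus levels of MEIS1 were 8.7, 9.02, 14.5 and 17.8 FPKM in caged hypothalamus and 13.8, 12.7, 5.85 and 9.29 FPKM in floor-water hypothalamus. The values of MEIS1 were 0.24 ± 0.38 (adjusted p = 0.624) in caged and 0.94 ± 0.27 (adjusted p = 0.0133) in floor-water birds. MEIS2 had 2.47, 2.14, 2.66 and 1.78 FPKM in caged pituitary and 2.91, 3.15, 1.46 and 2.11 FPKM in floor-water pituitary. Hypothalamus levels of MEIS2 were 1.18, 1.02, 1.83 and 1.47 FPKM in caged hypothalamus and 1.95, 1.17, 1.37 and 1.36 FPKM in floor-water hypothalamus. The values of MEIS2 were 1.06 ± 0.20 (adjusted p = 0.00186) in caged and 0.90 ± 0.20 (adjusted p = 0.00391) in floor-water birds, and its floor-water adjusted p was 0.0801 with limma on log2(FPKM + 1).

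PBX3 was the cofactor that was lower in the pituitary. It had 3.18, 3.07, 3.23 and 3.06 FPKM in caged pituitary and 3.66, 3.69, 2.84 and 1.94 FPKM in floor-water pituitary. Hypothalamus levels of PBX3 were 5.59, 6.63, 5.93 and 5.45 FPKM in caged hypothalamus and 5.31, 4.37, 4.41 and 7.6 FPKM in floor-water hypothalamus. The values of PBX3 were -0.57 ± 0.12 (adjusted p = 0.00344) in caged and -0.63 ± 0.24 (adjusted p = 0.0472) in floor-water birds. The floor-water call was lost without hypothalamus library 1 or 4 (adjusted p of 0.0788 and 0.136), without any 1 of the 4 pituitary libraries (0.0504 to 0.0955) or libraries 2 and 4 together (0.156), without a filter (0.0509) and with the replicate block (0.118). The large zinc finger homeobox genes ZFHX3, which acts in the circadian centre of the mouse hypothalamus, and ZFHX4 were lower in the pituitary where called. ZFHX3 had 2.59, 1.36, 1.71 and 0.622 FPKM in caged pituitary and 2.23, 1.93, 1.45 and 2.12 FPKM in floor-water pituitary. Hypothalamus levels of ZFHX3 were 3.84, 3.42, 4.28 and 3.1 FPKM in caged hypothalamus and 3.91, 4.54, 3.7 and 3.6 FPKM in floor-water hypothalamus. ZFHX4 had 0.929, 0.798, 0.689 and 0.398 FPKM in caged pituitary and 1.39, 0.97, 0.671 and 0.379 FPKM in floor-water pituitary. Hypothalamus levels of ZFHX4 were 2.93, 2.84, 2.16 and 2.25 FPKM in caged hypothalamus and 3.42, 2.37, 1.34 and 2.81 FPKM in floor-water hypothalamus. The values of ZFHX3 were -0.87 ± 0.36 (adjusted p = 0.0667) in caged and -0.82 ± 0.15 (adjusted p = 0.00108) in floor-water birds, and those of ZFHX4 -1.51 ± 0.26 (adjusted p = 0.00115) and -1.35 ± 0.38 (adjusted p = 0.0131). The caged value of ZFHX3 passed under 7 alternatives, at 0.0111 without pituitary library 1 and at 0.0277 with the replicate block, and the floor-water call of ZFHX4 was lost without pituitary libraries 2 and 4 (0.0574).

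**Figure D3:**
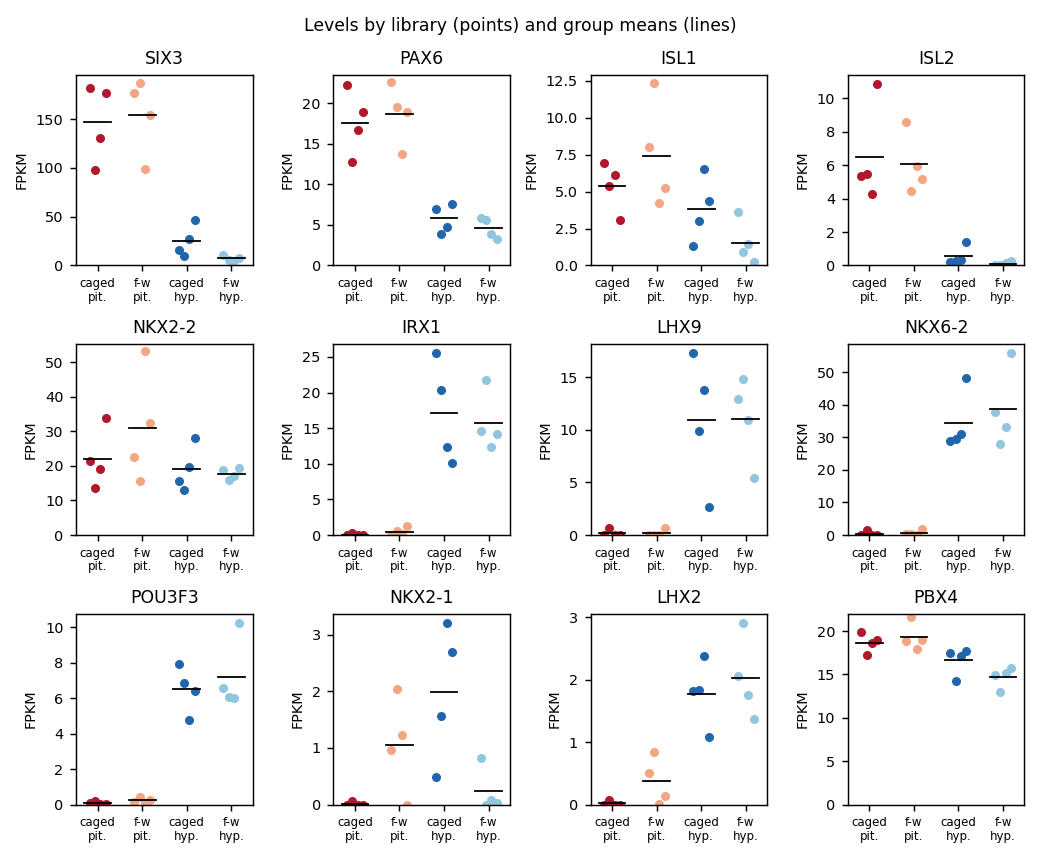
FPKM of 12 homeobox genes in each library (points) with group means (lines), for caged and floor-water pituitary (pit.) and caged and floor-water hypothalamus (hyp.; f-w, floor-water). SIX3, PAX6 and ISL2 lie higher in pituitary, IRX1, LHX9, NKX6-2 and POU3F3 lie near 0 there, and NKX2-2 and PBX4 are present in all 16 libraries.

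A few pituitary libraries carried the brain factors. Caged pituitary library 2 and floor-water pituitary library 4 had 1.44 and 1.95 FPKM of NKX6-2, 0.658 and 0.675 FPKM of LHX9 and 0.22 and 1.21 FPKM of IRX1. The same libraries had 96.9 and 99.9 FPKM of MBP, the major myelin protein, and the highest oligodendrocyte marker sums of their groups, 211 and 221 FPKM, against 10.7 to 21.2 FPKM in the other caged and 26.7 to 92.5 FPKM in the other floor-water pituitary libraries. Without caged pituitary library 2 the caged fold changes lay farther from 0: -10.24 for IRX1, -8.35 for IRX2, -9.60 for NKX6-2, -7.05 for OTX2, -6.83 for POU3F3, -6.60 for BARHL2 and -6.70 for BARHL1. For LHX2, LHX9, OTX1 and NKX2-1 no counts were then left in caged pituitary, so their fitted values of -11.72, -14.85, -10.81 and -10.74 are no bounds. Without floor-water pituitary library 4 the floor-water values were -5.92 for IRX1, -7.09 for IRX2, -8.71 for LHX9 and -7.17 for NKX6-2, and without floor-water pituitary library 2 the value of BARHL2 was -5.44. What part the brain-like RNA of these libraries has in the pituitary levels was not tested.

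Floor-water pituitary library 2 was the highest of the 8 pituitary libraries for 7 of the 15 genes at 1 FPKM or more there: DLX1, ISL1, MEIS2, NKX2-1, PBX3, PBX4 and SIX3. The share over all genes was not computed, so the count is not shown to be particular to homeobox genes. That library also held the highest pituitary levels of LHX2, LHX5, DLX5 and DLX6, with 0.837, 1.1, 1.95 and 1.06 FPKM. The hypothalamic factors RAX, OTP and HMX3 reached 3.78, 2.53 and 4 FPKM in that library, and CRYM, a marker of tanycytes, 113 FPKM, against 7.54 to 25.9 FPKM in the other 7. The part of these markers' cells in the homeobox levels was not tested.

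Within the hypothalamus, 20 of the 39 genes at 1 FPKM or more ranged less than 3-fold over the 8 libraries, among them IRX1, IRX2, LHX2, OTX2, PAX6, the 4 POU3F genes, ZFHX3 and PBX4. DLX1, DLX6, EMX2, ISL1, NKX2-1, PAX2, PAX7 and POU4F1 ranged 10-fold or more. Within the pituitary 9 of 15 genes ranged less than 3-fold and NKX2-1 alone 10-fold or more. The variable genes did not vary alike. DLX1 had 2.22, 3.24, 10.3 and 6.11 FPKM in caged hypothalamus and 6.17, 1.99, 2.41 and 0.633 FPKM in floor-water hypothalamus, and DLX5 had 2.07, 2.03, 8.28 and 3.67 FPKM in caged and 5.68, 1.01, 1.53 and 0.865 FPKM in floor-water hypothalamus. DLX6 had 0.899, 0.726, 5.53 and 2.54 FPKM in caged and 4.16, 0.999, 1.49 and 0.26 FPKM in floor-water hypothalamus. Caged library 3 and floor-water library 1 were the highest of their groups for all 3 DLX genes, for LHX6 and ISL1, and for OTP, a regional factor outside the list, with 6.75 and 4.47 FPKM.

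A different pair of libraries carried the boundary genes. PAX2 had 0.224, 3.99, 0.62 and 0.412 FPKM in caged hypothalamus and 0.292, 0.103, 0.281 and 3.77 FPKM in floor-water hypothalamus. Caged library 2 and floor-water library 4 alone passed 1 FPKM of PAX2, and the same libraries had 0.94 and 1.43 FPKM of PAX5, 14.6 and 22.3 FPKM of EN1, a midbrain factor, and 14.2 and 38.8 FPKM of TH, the enzyme of dopamine neurons. Floor-water library 4 was also the highest of the 8 for 9 of the 39 genes, among them EMX2, IRX5, LHX1, LHX5, NKX6-2, PAX7, PBX3 and POU3F3. Over all genes that share was not computed. POU4F1 had 4.68, 4.09, 0.218 and 0.0609 FPKM in caged hypothalamus and 1.47, 3.23, 2.4 and 0.98 FPKM in floor-water hypothalamus, so that caged libraries 3 and 4 were close to 0 and caged libraries 1 and 2 the highest of all 8. The plot of these genes relative to their highest library sets the patterns side by side. They are descriptions of single libraries, and the part of other regions' RNA in them was not tested.

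**Figure D4:**
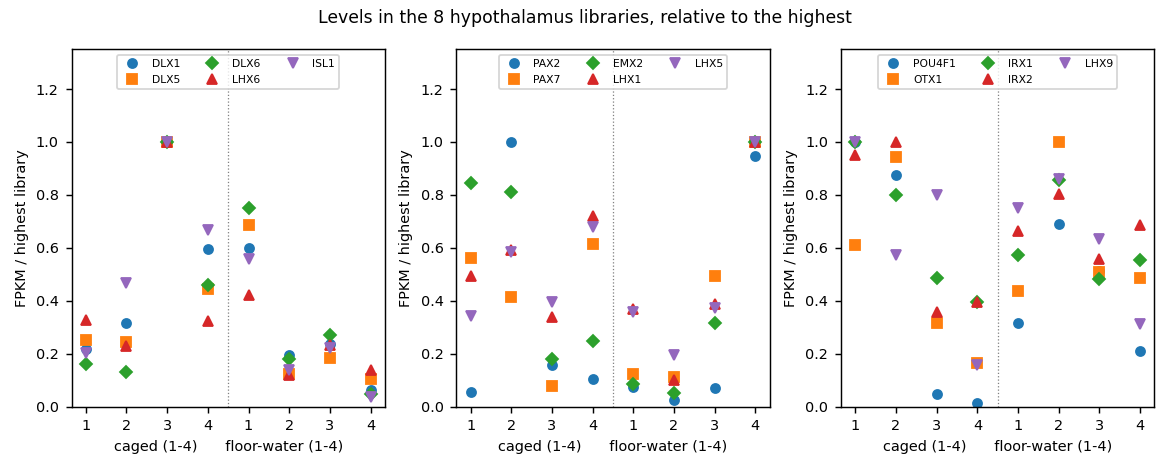
FPKM of 15 homeobox genes in the 8 hypothalamus libraries, each divided by the gene's highest library, for DLX1, DLX5, DLX6, LHX6 and ISL1 (left), PAX2, PAX7, EMX2, LHX1 and LHX5 (middle) and POU4F1, OTX1, IRX1, IRX2 and LHX9 (right). Caged library 3 is the highest for all 5 genes on the left, and floor-water library 4 is the highest for 4 of the 5 genes in the middle.

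Neighbouring genes were compared where the file placed members within 1000 kb of each other. DLX5 and DLX6, 6.69 kb apart, were both highest in caged hypothalamus library 3, and in the pituitary both were highest in floor-water library 2. NKX2-2 and NKX2-4 lie 23.5 kb apart, yet NKX2-2 was at 13 to 53.2 FPKM over all libraries and NKX2-4 at most at 0.758 FPKM. IRX1 and IRX2, 549 kb apart, and IRX3 and IRX5, 405 kb apart, were lower in the pituitary in both housings. NKX2-8 lies 38.2 kb from NKX2-1 and 47.4 kb from PAX9, and the genes were all below 3.3 FPKM. No source names the build behind the positions, so distances alone are given.

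Between the housings, 0 of the homeobox genes tested passed the threshold in either tissue. In the hypothalamus, caged against floor-water, 54 were tested and 0 were called, as were 0 of all 15736 genes (background 0%), while DESeq2 called 180 genes higher and 54 lower, of which SIX3 was the homeobox gene. At an unadjusted p under 0.05, 2 homeobox genes were higher in caged birds and 0 lower, against 889 and 574 of all genes (background 5.65% and 3.65%), and the median log2 fold change was 0.10 over the homeobox genes and 0.00 over all. In the pituitary 43 were tested and 0 called, as were 0 of 15582 genes (background 0%), and DESeq2 called 13 genes higher and 25 lower with 0 homeobox genes. There 0 were higher and 3 lower at an unadjusted p under 0.05 (background 1.71% and 2.59%), with medians of -0.22 over the homeobox genes and -0.01 over all. FPKM ranges did not overlap for DLX3 in the hypothalamus, where it was higher in caged birds (background 4.4%), and for POU3F2 in the pituitary, where it was lower (background 1.78%).

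SIX3 had the smallest p in the hypothalamus. Its caged libraries had 15.5, 10.2, 27.5 and 46.2 FPKM, against 10.5, 5.65, 4.99 and 7.95 FPKM in the floor-water libraries. Caged library 2 lay below floor-water library 1, so the ranges overlapped. The log2 fold change, caged minus floor-water, was 1.72 ± 0.44 (adjusted p = 0.375). DESeq2 called it with an adjusted p of 0.00448, and so did the authors' deposited table, which gives a fold of 3.42 and a q-value of 0.00305. Pituitary hormone transcripts in the same libraries had a mean log2(FPKM + 1) over the marker list of 4.22 in the caged and 2.52 in the floor-water group, a difference of 1.70 that did not pass a two-sided exact permutation test (p = 0.171), and caged library 2 had the lowest sum of all 8, at 63.5 FPKM. The value of SIX3 was 1.23 without caged library 4, which has the highest sum, and 0.79 with an adjusted p of 0.604 when the pituitary marker level was a covariate. In the plot against the marker sum, SIX3 and ISL2 are highest in caged library 4 and NKX2-1 in caged library 3. LHX3, a pituitary factor left out of the list, had 11.7, 0.203, 12.1 and 113 FPKM in caged hypothalamus and 4.47, 0.168, 0.458 and 0.906 FPKM in floor-water hypothalamus. Whether pituitary RNA accounts for the SIX3 difference between housings was not tested.

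**Figure D5:**
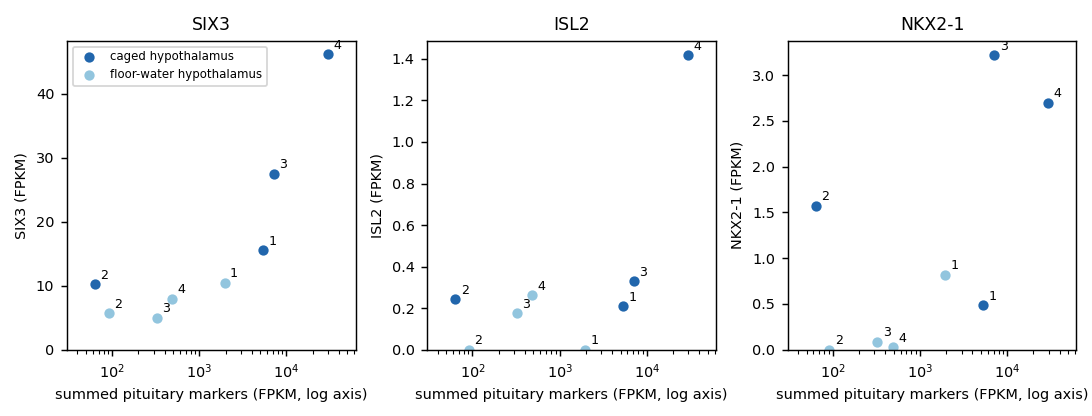
FPKM of SIX3, ISL2 and NKX2-1 in each of the 4 caged (dark) and 4 floor-water (light) hypothalamus libraries, numbered, against the summed FPKM of 12 pituitary hormone cell markers on a log axis. Caged library 4, with 29807 FPKM of the markers, is the highest for SIX3 and ISL2.

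NKX2-1 was the other gene with an unadjusted p under 0.05 in the hypothalamus, at 3.08 ± 1.22 (adjusted p = 0.496). Its caged libraries had 0.484, 1.57, 3.21 and 2.7 FPKM, against 0.817, 0, 0.0863 and 0.0287 FPKM in floor-water libraries. Floor-water library 1 exceeded caged library 1. Without that floor-water library the value was 5.48 with an adjusted p of 0.399. Over 19 alternatives, with the fit without caged library 4 entered more than once, the adjusted p ran from 0.141 to 0.795. NKX2-4 and NKX2-8 leaned the same way without a call, NKX2-4 at 2.19 ± 1.298 (adjusted p = 0.654) and NKX2-8 at 3.25 ± 1.51 (adjusted p = 0.551). The authors' deposited table marks NKX2-1, NKX2-4, LHX6 and SIX3 in the hypothalamus, 4 of the 101 genes against 506 of 24263, or 2.09%, and of these SIX3 has a q-value under 0.05. BARHL2 came next among genes at 1 FPKM or more, at 0.55 ± 0.29 (adjusted p = 0.605). On the other side POU3F4 had -0.31 ± 0.18 (adjusted p = 0.653), POU3F1 -0.49 ± 0.31 (adjusted p = 0.672) and POU3F2 -0.34 ± 0.25 (adjusted p = 0.722).

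In the pituitary the genes with the smallest p were lower in caged birds and low throughout. POU3F2 had 0.0419, 0.119, 0.0715 and 0.0254 FPKM in caged pituitary, against 0.189, 0.483, 0.194 and 0.26 FPKM in floor-water pituitary, and -1.93 ± 0.74 (adjusted p = 1). LHX2 had 0, 0.0776, 0 and 0 FPKM in caged pituitary and 0.502, 0.837, 0.012 and 0.134 FPKM in floor-water pituitary, and -3.99 ± 1.62 (adjusted p = 1), or -9.58 without caged pituitary library 2 and -5.49 with the replicate block, neither called. POU3F1 had -1.49 ± 0.66 (adjusted p = 1). NKX2-1 had 8 counts in the 4 caged pituitary libraries together and 569 in the 4 floor-water libraries, of which library 4 had none. It did not pass the filter on low counts, and without a filter its value was -6.01 with an adjusted p of 0.874. Of the 25 genes that enter without the filter, 2 had an unadjusted p under 0.05, NKX2-1 and HOXD8, and 0 were called. Over all 19634 genes of that fit, 917 had an unadjusted p under 0.05. In the hypothalamus 20 genes entered without the filter. Of these 0 had an unadjusted p under 0.05, against 1623 of all 19991 genes. The hypothalamic factor RAX was at 0.378, 0.246, 0.35 and 0.169 FPKM in caged pituitary and 1.4, 3.78, 0.153 and 0.477 FPKM in floor-water pituitary. The part of such RNA in these differences was not tested.

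The better expressed pituitary genes passed no test between housings. Among genes at 1 FPKM or more, POU6F1 at 0.42 ± 0.31 (adjusted p = 1), PBX3 at 0.12 ± 0.20 (adjusted p = 1) and ISL2 at 0.17 ± 0.36 (adjusted p = 1) had the smallest p on the higher side, and MEIS1 at -0.51 ± 0.33 (adjusted p = 1), NKX2-2 at -0.50 ± 0.45 (adjusted p = 1) and ISL1 at -0.36 ± 0.32 (adjusted p = 1) on the lower side. SIX3, the highest of the 101, averaged 147 ± 40 FPKM in caged pituitary and 154 ± 39 FPKM in floor-water pituitary (mean ± SD, 4 libraries each). Its log2 fold change was 0.03 ± 0.23 (adjusted p = 1), and that of PAX6 was -0.00034 ± 0.20 (adjusted p = 1). The authors' deposited table marks IRX1, LHX2, NKX2-1, OTX2 and POU3F1 in the pituitary, all lower in caged birds, 5 of the 101 genes against 342 of 24263, or 1.41%. Of these NKX2-1 has a q-value under 0.05, at 0.0387.

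The housing difference in the pituitary minus that in the hypothalamus was tested for 57 of the genes over all 16 libraries. None passed the threshold, and 0 of 17010 genes did (background 0%), while DESeq2 called 10 genes positive and 120 negative. At an unadjusted p under 0.05, 1 homeobox gene was positive and 5 were negative (background 1.85% and 5.36%), and the median was -1.001 over the homeobox genes and -0.06 over all. NKX2-1 had -9.08 ± 2.30 (adjusted p = 0.298) and was the homeobox gene that DESeq2 called, with an adjusted p of 0.0472. Its housing difference was not called in the hypothalamus, and in the pituitary NKX2-1 did not pass the filter on low counts. SIX3 had -1.70 ± 0.53 (adjusted p = 0.423) and POU3F2 -1.58 ± 0.55 (adjusted p = 0.492). On the positive side BARHL1 had 4.21 ± 1.77 (adjusted p = 0.63), POU6F1 0.24 ± 0.38 (adjusted p = 0.99) and IRX3 0.44 ± 0.80 (adjusted p = 0.996). BARHL1 has 0 counts in floor-water pituitary, so its fitted value is no bound.

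Transcription factors of regional identity outside the homeobox list were set beside it. Of 40 such genes 34 were in the table. In caged birds 28 were tested, and 5 were higher (background 27.3%) and 14 lower (background 26.8%) in the pituitary, with a median log2 fold change of -2.34. In floor-water birds 26 were tested, with 7 higher (background 28.5%), 7 lower (background 27.8%) and a median of -0.73. The floor-water counts lay near the background shares. No gene of that list was called between housings in either tissue (background 0%). GBX2 and TCF7L2 were lower in the pituitary, at -5.77 ± 1.59 (SE) and -4.17 ± 0.44 in caged and -6.50 ± 1.25 and -4.54 ± 0.56 in floor-water birds, with adjusted p of 0.0133, 0.000105, 0.00178 and 0.000129. NR5A1, a factor of gonadotrophs and of the ventromedial hypothalamus, was higher, at 4.18 ± 0.80 (adjusted p = 0.00221) in caged and 7.04 ± 0.88 (adjusted p = 0.000139) in floor-water birds.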

How the data were processed

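RNA sequencing of 16 duck libraries, 4 in each of 4 groups, was analysed from the deposited gene table. Per the labels, samples had an RNA integrity number above 7. Per the submitters' processing notes, the tools were StringTie 1.3.4d, HISAT2, DESeq2 and cutadapt, with no roles stated. No source used here names the genome build. The gene table holds whole-number counts per gene and FPKM, both as deposited by the authors. The authors' deposited tables of both housing comparisons also hold a fold, its log2, a p-value and a q-value, caged over floor-water.

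From the counts, edgeR 4.0.16 in R 4.3.3 was used: filterByExpr, TMM factors and the quasi-likelihood test of each comparison on its own libraries, with Benjamini-Hochberg adjustment over all genes tested and a threshold of 0.05. The difference between tissues in the housing effect was fitted over all 16 libraries. The quasi-likelihood test gives no SE of its own. The SE printed with an edgeR value is the size of the log2 fold change divided by the square root of the F statistic. A gene with 0 counts in a group was set against a floor of 3 counts over the group. These bounds were scaled by raw library totals without TMM factors, so their scale differs from that of the edgeR fold changes. Marker lists were compared by their mean log2(FPKM + 1) per library in two-sided exact permutation tests, for which the smallest possible p with 4 against 4 libraries is 0.0286. The scripts were tested on simulated data.

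Library totals of 38853215 to 67175356 counts set the counting precision, which is finer than the spread between libraries. No pair of libraries in a group agreed within sampling noise, the chi-square per degree of freedom being 71.8 to 537. Alternatives were other size factors, DESeq2 1.42.0, limma 3.58.1 on log2(FPKM + 1) and log2(FPKM + 0.1), no filter, 1 fit over all libraries, the replicate number as a block, each library left out in turn, libraries rich in the other tissue's transcripts left out, and the other tissue's marker level as a covariate. The newer quasi-likelihood fit of edgeR and the fit without caged hypothalamus libraries 2 and 4 were chosen after seeing the data.

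A few genes are counted but not reported here by name, and every other gene of the list is named. Values per library were given for the 8 called genes with the largest fold change each way per tissue comparison at 1 FPKM or more, for the 3 smallest p each way in the housing comparisons and their difference, and for a further set of known regional genes. The genes and lists were chosen with earlier results of these data known. Gene names of entries listed by locus number come from the RefSeq gene table of the assembly IASCAAS_PekinDuck_T2T, and they are no members. Sequences are not used here.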

Additional observations from a re-analysis of the deposited data

Results flagged for a closer look

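In 4 of 86 sets of 4 libraries examined, the highest library of a group lay apart from the others by more than Dixon's 95% criterion for 4 samples, and chance alone would flag about 1 in 20 groups, here 4.3. LHX6 had 4.58 FPKM in caged hypothalamus library 3, against 1.05 to 1.49 FPKM in the other 3 caged libraries. That library was also the highest for DLX1, DLX5, DLX6 and ISL1. NKX6-2 had 48.3 FPKM in caged hypothalamus library 4, against 28.9 to 31 FPKM in the others, and that library had the highest oligodendrocyte marker sum of its group, 6677 FPKM. OTX1 had 3.45 FPKM in floor-water hypothalamus library 2, against 1.51 to 1.76 FPKM in the others. POU3F3 had 10.3 FPKM in floor-water hypothalamus library 4, against 6 to 6.55 FPKM in the others. That library was the highest of all 8 for 9 of the 39 homeobox genes at 1 FPKM or more, a share not computed over all genes.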

How the results depend on the processing

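The counts of called homeobox genes, pituitary against hypothalamus, kept within 1.5 times the reported ones under every alternative run. With each library left out in turn, 7 to 8 genes were higher and 28 to 33 lower in caged birds, and 9 to 11 were higher and 22 to 26 lower in floor-water birds. With the replicate number as a block, 8 were higher and 29 lower in caged birds, 9 were higher and 24 lower in floor-water birds, and 0 were called between housings. The labels used here do not say whether same-numbered libraries share birds, and in no comparison did every pair correlate above 0.1: same-numbered libraries correlated in their deviations from the group means at 0.0913 to 0.191 between the caged tissues, 0.0231 to 0.202 between the floor-water tissues, -0.0132 to 0.155 between the hypothalamus groups and -0.105 to 0.23 between the pituitary groups, over 13477 genes, and 3, 3, 2 and 1 of the 4 pairs correlated best with their own number. Among the homeobox genes DESeq2 called 1 higher in caged hypothalamus, SIX3, and 1 negative difference between the tissues, NKX2-1. There edgeR called 0 homeobox genes, and the cause was not tested. With each library left out in turn, 0 homeobox genes were called between housings in either tissue and 0 in the difference between tissues. For single genes 2881 of 2944 alternatives over 155 values kept their side of the threshold, 47 lost the call, 16 gained one and 0 called values reversed. Many of these values are housing differences, where edgeR called 0 of all genes, so they had no call to lose and the total overstates how stable the calls are. Apart from SIX3 and NKX2-1 under DESeq2, every change was in a comparison of the tissues. The fit without caged hypothalamus library 4 entered the hypothalamus comparison in 2 alternatives that are the same. An alternative without an adjusted p was counted as unchanged. Values without a call could change sign, as LHX9 did between housings in the pituitary, from -0.17 to as high as 2.87. Caged minus floor-water in the hypothalamus, folliculostellate markers differed by 0.95 with a pseudocount of 0.1 (two-sided exact permutation p = 0.0286). With a pseudocount of 1 they differed by 0.62 (two-sided exact permutation p = 0.0571), and the cause was not tested. Of the 7 genes of that list 3 were in the table, ALDH1A1, SOX2 and S100B. Their log2 fold changes in edgeR were 3.16, 0.36 and -0.14, and none was called. Fibroblast markers differed by 0.61 with a pseudocount of 1 (two-sided exact permutation p = 0.0286), the smallest p that the test can give. Every marker list was tested in both tissues with both pseudocounts, and the p-values are not adjusted for that number. Depth limits genes below about 0.1 FPKM, which includes most HOX genes.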
